A study of Mus musculus with 167 samples.

Results

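The genes described here are 8 members of 2 families of receptor tyrosine kinases and their ligands: the TAM receptors Axl, Tyro3 and Mertk with their ligands Gas6 and Pros1, the receptor Met with its ligand Hgf, and Mst1r, the receptor closest to Met. They were taken by symbol from the 36118 genes of the count table, and all 8 were found. RNA had been sequenced from 167 tumours of 119 mice, and each mouse came from a mating of a Collaborative Cross male with a MexTAg female. Collaborative Cross lines are inbred mouse lines with mosaic genomes. In MexTAg mice the mesothelin promoter drives SV40 large T antigen, an oncogene, in mesothelial cells, the lining of the body cavities. The mice fall into 35 crosses, called strains below and named after the paternal line.

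All mice, in both groups, carried that cross and had received 2 injections of 3 mg of crocidolite asbestos into the peritoneal cavity, 1 month apart. The labels give no other treatment, and no sample without asbestos or without a tumour was analysed here. The labels place 83 mice above and 36 mice below median survival. The age at sampling is not given in the sources used here. Whole tumours were taken, so each library mixes tumour cells with stroma, immune cells and, in some, pieces of neighbouring organs. In such bulk samples, fewer cells of a type and less RNA per cell cannot be told apart. The mouse was the replicate, and counts of the 1 to 6 tumours of a mouse were summed. P-values measure the spread between these mice.

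TAM receptors bind Gas6 and protein S, the product of Pros1, which bridge them to phosphatidylserine on dying cells and on membrane debris. They dampen inflammatory signalling and drive the uptake of dying cells in macrophages, and Axl is often raised in invasive, mesenchymal tumour cells. Met binds hepatocyte growth factor (HGF), which stromal cells release as an inactive precursor, and it drives cell scattering, growth and survival. Met, HGF and Axl have all been studied as drug targets in mesothelioma.

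Libraries held between 11138491 and 35399287 counts (median 22539831). Marker genes of other cell types set 22 tumours of 13 mice apart. In these, 8 genes of B and plasma cells summed to between 1605 and 5789 CPM (counts scaled to the same library total), against a median of 45.05 CPM and at most 914 CPM in the others. These 22 tumours include 11 of the 14 of strain CC044 and 7 of the 10 of strain CC053, and 13 come from mice above and 9 from mice below median survival. In 21 libraries marker genes of another organ took over 1% of counts, and 6 libraries resembled another strain more than their own by strain-marking genes. Results that rest on such libraries are given with and without them. Mesothelial markers were low: the median over mice was 17.5 CPM for Msln (mesothelin), 9.81 CPM for Wt1 and 0.071 CPM for Calb2 (calretinin), which reached 1 CPM in 7 of 119 mice. The sum of 12 mesothelial markers ran from 8.68 to 6116 CPM in mice above and from 12.7 to 4589 CPM in mice below median survival. Defining mesothelial markers were thus near 0 in some of the tumours labelled mesothelioma and high in others.

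The 2 receptors that the results turn on, Axl and Met, are shown with the sequence just before their start, because their levels moved with mesenchymal genes and with neighbouring genes, respectively. Positions are RefSeq starts on GRCm38.p6, written 5′ to 3′ along the gene, with the base before the start as -1. Capitals mark the only match, on either strand of the 250 bases before the start, to GGAATG (the core bound by TEAD factors, the partners of YAP) for Axl, and to TGAGTCA (the AP-1 site) for Met. The Axl sequence is chr7:25788734-25788983 on the minus strand, and its match begins at -233. The Met sequence is the 30 bases chr6:17463891-17463920 on the plus strand, and its match begins at -54. GENCODE M21 starts Met earlier, at 17463800, so these bases lie inside the gene as placed there.
Axl: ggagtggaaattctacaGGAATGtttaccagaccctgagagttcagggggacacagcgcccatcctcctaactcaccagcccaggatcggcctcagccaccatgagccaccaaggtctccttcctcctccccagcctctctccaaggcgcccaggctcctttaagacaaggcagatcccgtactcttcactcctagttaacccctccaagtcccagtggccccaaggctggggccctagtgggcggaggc
Met: ctgttgcccggcTGAGTCAcgggccgggca
Of 32851 RefSeq promoters, 4153 (12.6%) hold GGAATG and 1466 (4.46%) hold TGAGTCA within 250 bases before the start, on either strand. These matches describe the letters only. None of the other 6 genes has either motif in its window.

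Axl was the receptor of highest level. Per kilobase of exon, which allows genes to be compared, the median over the 119 mice was 96.1 CPM for Axl, 9.63 CPM for Mertk and 2.65 CPM for Tyro3. Among the ligands it was 39.8 CPM for Gas6 and 21.7 CPM for Pros1. Met, at 17.1 CPM per kilobase, lay between the TAM ligands and its own ligand Hgf at 7.39 CPM, and Mst1r was lowest at 1.74 CPM. No member was at 0 in any of the 167 tumours.

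No difference between the survival classes was found for the 8 genes. Of 17091 genes tested with edgeR's quasi-likelihood test, 267 differed between the classes at an adjusted p under 0.05 (1.56% of genes), and 0 of the 8 did. Strain was not a covariate here, and the classes were unevenly spread over strains. By edgeR's test 0 of the 8 reached an unadjusted p under 0.05, and limma-voom and DESeq2 also called 0 of the 8. Differences below are log2 fold changes, mice below minus mice above median survival, with their standard error, beside a median of -0.02 over all genes.

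Among the TAM receptors, Axl lay between 49.5 and 1140 CPM (median 506) in mice above and between 123 and 1073 CPM (median 443) in mice below median survival. The Axl difference was -0.05 ± 0.16 (95% interval -0.37 to 0.26, adjusted p = 0.976). Both classes thus span nearly the whole range of Axl, and the 2 lowest mice were above median survival. Tyro3, a receptor best known from the nervous system, lay between 2.37 and 57.5 CPM (median 15.5) above and between 1.46 and 62.2 CPM (median 18.5) below, a difference of 0.13 ± 0.19 (adjusted p = 0.936). Mertk, the main TAM receptor of macrophages, lay between 12.04 and 252 CPM (median 41.4) above and between 12.8 and 93.8 CPM (median 42.4) below, a difference of -0.15 ± 0.17 (adjusted p = 0.907). The medians of both genes are close together and the classes overlap over most of their range.

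The ligands showed the same overlap. Gas6, which binds all 3 TAM receptors, lay between 11.7 and 5933 CPM (median 101.2) above and between 15.8 and 796 CPM (median 118) below, a difference of -0.16 ± 0.33 (adjusted p = 0.964). A single mouse, CC046-J5 above median survival, holds 22.8% of the Gas6 CPM summed over the 119 mice. The Gas6 difference had the opposite sign with limma-voom (0.34), limma-trend (0.31) and DESeq2 (0.37), also short of the threshold. Pros1, which binds Tyro3 and Mertk and is better known as an anticoagulant, lay between 12.9 and 381 CPM (median 86.7) above and between 20.8 and 271 CPM (median 89.8) below, a difference of 0.11 ± 0.17 (adjusted p = 0.943).

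Met had the widest range of the 8 genes. It lay between 1.98 and 7401 CPM (median 131) above and between 39.5 and 4732 CPM (median 134) below, a difference of 0.34 ± 0.43 (95% interval -0.51 to 1.18, adjusted p = 0.926). The medians differ by little, and each class has a tail of mice far above the rest. Hgf lay between 1.89 and 414 CPM (median 46.97) above and between 3.35 and 182 CPM (median 53.97) below, a difference of -0.40 ± 0.31 (95% interval -1.01 to 0.21, adjusted p = 0.811). Mst1r, the receptor for macrophage-stimulating protein, lay between 0.923 and 80.6 CPM (median 9.58) above and between 1.71 and 157.9 CPM (median 8.29) below, a difference of 0.12 ± 0.32 (adjusted p = 0.971).

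**Figure D1:**
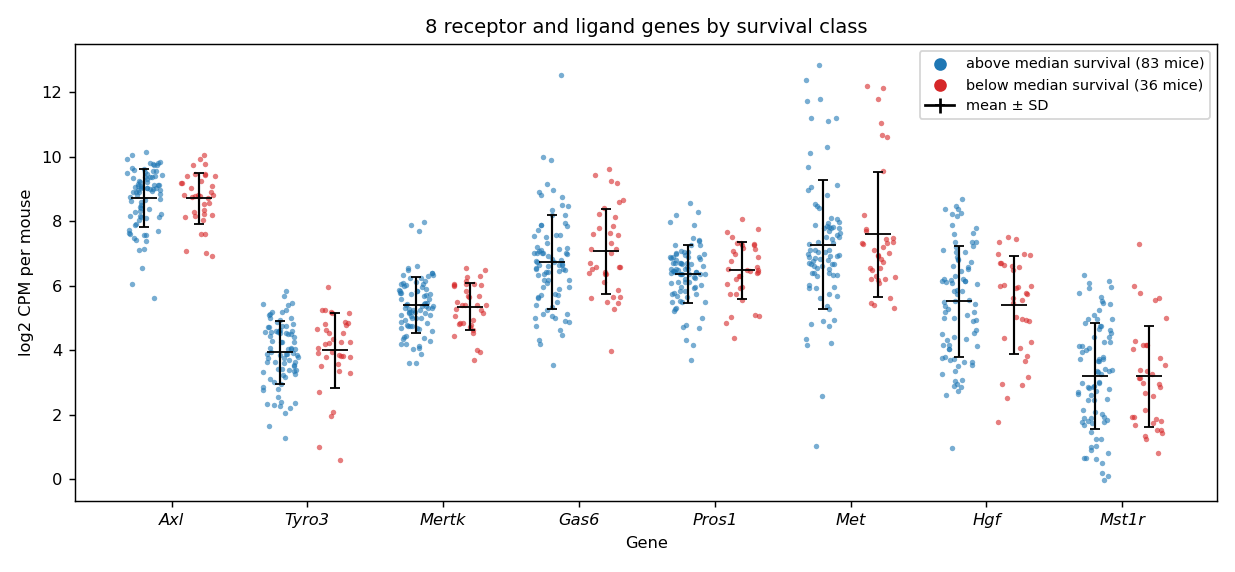
Log2 CPM of each gene per mouse (points), by survival class, with mean ± SD; the y axis is a log2 scale. The 83 mice above and 36 mice below median survival overlap for each of the 8 genes, and Met has a tail of high mice in both classes.

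Within strains none of the 8 passed either, but Gas6, Hgf and Axl had differences of the opposite sign to those over all mice. Of 35 strains, 13 held both classes (57 mice), and 0 of 16481 genes passed with strain as a covariate in edgeR's test (0% of genes), against 1882 at an unadjusted p under 0.05. DESeq2 called 65 genes and limma-voom 0, and none of these were among the 8. Gas6 had the largest difference relative to its error, 0.60 ± 0.29 (unadjusted p = 0.0430, adjusted p = 0.431), and it was higher in mice below median survival in 9 of 13 strains. Without the B-cell-rich tumours the Gas6 difference was 0.54 with an unadjusted p of 0.0896. Hgf differed by 0.61 ± 0.46 and was higher in 8 of 13 strains, although its difference over all mice was negative. Axl differed by 0.23 ± 0.22 and was higher in mice below median survival in 8 of 13 strains.

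No further gene of both pathways passed between the classes. Lists of 59 genes, for the carboxylation and shedding of TAM proteins, engulfment, the activation of HGF, the adaptors and co-receptors of Met and negative regulators, had 56 genes tested in each contrast, and 0 passed in either. The median log2 difference was -0.02 for the 12 adaptors and effectors of Met, -0.13 for the 13 tested engulfment genes and -0.38 for the 6 tested genes of HGF activation. Nearest to the threshold between classes were Sos1, which links Met to Ras (-0.61 ± 0.21, adjusted p = 0.152), Cbl, which tags active receptors for degradation (-0.25 ± 0.10, adjusted p = 0.297), and Lrp1, an engulfment receptor (-0.42 ± 0.19, adjusted p = 0.454). Within strain they were Plcg1, a phospholipase (0.43 ± 0.15, adjusted p = 0.402), Timd4, a phosphatidylserine receptor (-1.72 ± 0.61, adjusted p = 0.402), and Nrp1, a co-receptor (0.36 ± 0.16, adjusted p = 0.425). Sos1, Cbl and Lrp1 differed within strain by 0.05 ± 0.11, -0.19 ± 0.13 and -0.06 ± 0.27.

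Between strains most genes of the series differed, and so did 4 of the 7 members tested. Over the 25 strains with at least 3 mice, 14283 of 20687 genes passed edgeR's test between strains (69% of genes), so 4 of 7 is not above the background. Those that passed were Gas6 (adjusted p = 2.61e-08), Met (adjusted p = 9.54e-05), Pros1 (adjusted p = 0.00797) and Hgf (adjusted p = 0.0148). Tyro3 (adjusted p = 0.0600), Mst1r (adjusted p = 0.188) and Mertk (adjusted p = 0.556) did not pass. Without the B-cell-rich tumours the same 4 passed, with adjusted p-values from 2.36e-06 for Gas6 to 0.0388 for Pros1. With limma-voom Met did not pass (adjusted p = 0.230) and Tyro3 did (adjusted p = 0.00656), so the strain call for these receptors differs between tests. In no member did strains next to each other in the order of means differ by more than the larger of their SDs, in any of 24 steps.

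Axl was not tested between strains, since CC040 and LAX were named as its high and low strain in the choice of genes. Axl in the 4 CC040 mice was 679, 756, 758 and 853 CPM. In the 6 LAX mice Axl was 67.2, 169, 198, 206, 439 and 483 CPM. The groups do not overlap, which their choice as high and low strain favours: the highest LAX mouse was below the lowest CC040 mouse. The mean log2 CPM of Axl was 9.57 ± 0.13 (SD, n = 4) in CC040 and 7.75 ± 1.04 (SD, n = 6) in LAX, a difference of 1.82. Next to CC040 stood CC059 at 9.46 ± 0.33 (SD, n = 5), and next to LAX stood CC044 at 7.87 ± 0.72 (SD, n = 7) and CC053 at 7.88 ± 1.07 (SD, n = 6), none apart from its neighbour beyond the spread.

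Which strain was lowest depended on a few libraries. LAX-E2, the lowest LAX mouse, came from a library in which hepatocyte markers took 433177 CPM, and without it LAX had a mean of 8.08, above CC044 and CC053. Leaving out any 1 of the 10 mice gave a difference between CC040 and LAX from 1.49 to 2.06. This range only describes 2 strains that were named by their Axl level, and it is no test of the difference. Without the B-cell-rich tumours CC053 rose to 9.06 ± 0.61 (SD, n = 3), the 12th of 24 strains, CC044 had too few mice, and LAX stayed lowest at 7.74 ± 1.17 (SD, n = 5). The 4 LAX mice above median survival, LAX-E2 among them, were the 4 lowest. With so few mice chance alone can separate the classes, and the share of all genes was not computed. CC040 and VIT, each with 1 mouse below median survival, lay as LAX did. VUX, also with 1 such mouse, lay the other way (-1.09 on the log2 scale), and the classes overlapped in the other strains that held both.

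The 2 strains also differed in what their tumours held. The sum of 11 mesenchymal genes was 12778 to 16538 CPM in CC040 and 2127 to 20762 CPM in LAX, with medians of 13997 and 4448 CPM. Hepatocyte genes summed to 11.6 to 84.5 CPM in CC040 and 432 to 435028 CPM in LAX. B and plasma cell genes summed to 5.18 to 103.03 CPM against 68.5 to 1372 CPM, and macrophage genes to 1015 to 1958 CPM against 677 to 18790 CPM. Their part in the Axl difference was not tested.

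**Figure D2:**
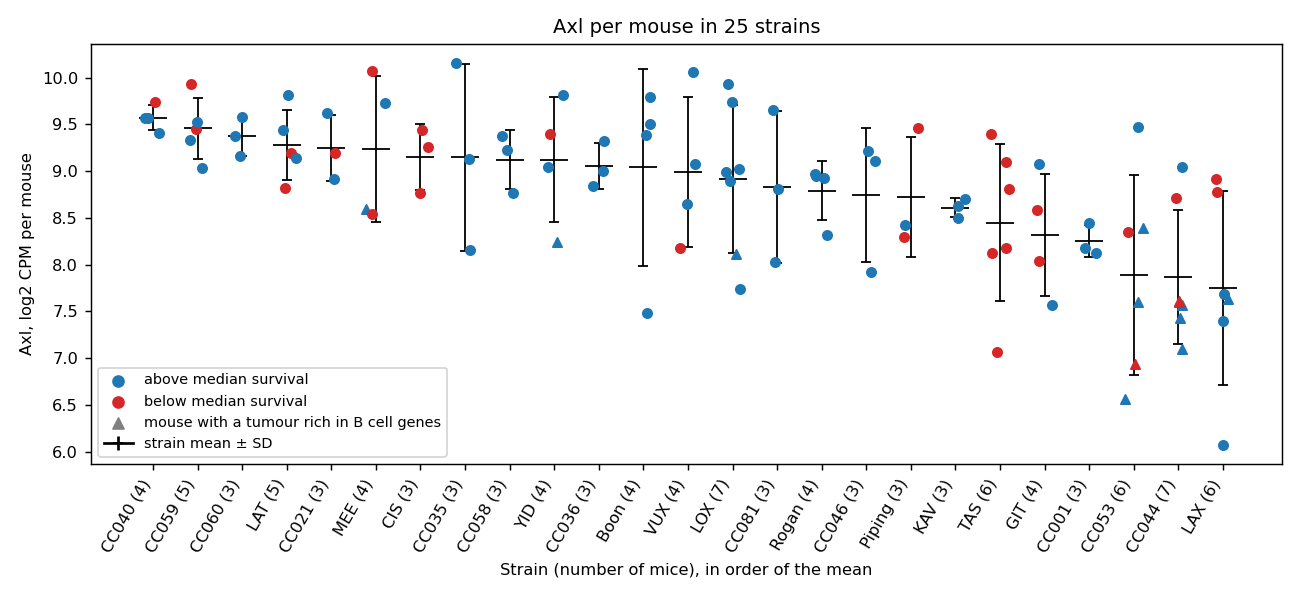
Axl in log2 CPM per mouse (points) in the 25 strains that hold 3 or more mice, sorted by the strain mean, with mean ± SD; colours give the survival class and triangles mark mice with a tumour rich in B cell genes. CC040 mice sit together at the top, the LAX mice spread over a wide range at the bottom, and most CC044 and CC053 mice at the bottom are triangles.

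For Gas6 and Met, the highest strains held mice far apart from each other. Gas6 was highest in CC046, where its 3 mice had 89.7, 576 and 5933 CPM, a mean log2 CPM of 9.40 ± 3.03 (SD, n = 3). Rogan followed for Gas6 with 72.8, 146.9, 448 and 1013 CPM in its 4 mice. The highest of these, Rogan-C3, includes a tumour with 2164 CPM of Gas6 that resembled the CC046 tumour with 6058 CPM, so its strain label is uncertain, and the other tumour of that mouse had 89.2 CPM. Gas6 was lowest in CC058, with 18.2, 24.9 and 48.98 CPM. The top strains for Gas6 are thus wide and the bottom strain is narrow.

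Pros1 was highest in GIT, at 135, 136, 239 and 271 CPM in its 4 mice, and lowest in CC053 (5.02 ± 0.86 log2 CPM, SD, n = 6) and CC044 (5.23 ± 1.28, SD, n = 7), the strains with most B-cell-rich tumours. Met was highest in CC036, at 209, 1277 and 3553 CPM in 3 mice, and in CC040, at 98.6, 238, 1623 and 2338 CPM in 4 mice. It was lowest in YID, at 5.96, 26.8, 77.8 and 117 CPM by mouse. Hgf was highest in CC060, at 163, 164 and 306 CPM, followed by CC040, at 70.5, 182, 221 and 414 CPM in 4 mice. In the 6 LAX mice Hgf lay between 11.7 and 54.6 CPM, all below each CC040 mouse, as for Axl. These strains were named by their Axl level, and Hgf and Axl had a Spearman's rho of 0.54 over mice. The separation for Hgf is therefore not independent of that for Axl. The share of all genes that separate CC040 from LAX was not computed. CC040 was thus near the top for Axl, Met and Hgf, and it was lowest of the 25 strains for Mst1r, at 1.35 to 3.40 CPM.

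Strain took up 44.1% of the variance of Axl between mice, given as a description since its end strains were known when it was chosen. For the members not chosen on strains it was 45.4% for Pros1, 41.5% for Gas6, 38.3% for Hgf, 36.1% for Tyro3, 29.2% for Met, 20.3% for Mertk and 20.02% for Mst1r. As a reference for these members, and not for Axl, the median over 15835 genes was 36.5%. Strains of these sizes with no difference would give 23.5%. Mertk and Mst1r were thus below that level. Of 58 further pathway genes tested between strains 38 passed, again close to the background. Lowest in p were Sos1 (adjusted p = 2.13e-14), Mst1, the ligand of Mst1r, which the liver secretes (adjusted p = 1.98e-12), and Hgfac, the liver protease that activates HGF (adjusted p = 5.58e-11). Of the 7 tested genes of HGF activation 6 passed and of the 14 engulfment genes 11 passed.

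In a few mice the tumours differed widely in these genes, while in most they were close. The median range between the tumours of 1 mouse was 0.39 on the log2 scale for Met, 0.46 for Axl, 0.48 for Pros1, 0.55 for Hgf and 0.85 for Gas6, and the highest range was 6.37, for Met in Boon-H2. In 35 mice with several tumours (83 tumours), the SD of Met between tumours of 1 mouse was 1.41 on the log2 scale, against 1.79 between mice of 1 strain. For Gas6 the values were 1.13 and 1.23, for Axl 0.71 and 0.76, for Pros1 0.62 and 0.77 and for Hgf 0.86 and 1.47. The median SD between tumours of 1 mouse over all genes was 0.48. All 8 members exceeded it, from 0.58 for Mertk upwards. Without libraries nearer to another strain (30 mice) the SD within a mouse was 0.93 for Gas6, and for Mst1r it was 0.85 against 1.09. In that set it was 1.37 for Met, 0.66 for Axl and 0.60 for Mertk.

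The widest pair for Axl was mouse CC053-A1, with 650 CPM in tumour 1 and 48.3 CPM in tumour 2, which was rich in B cell genes. Hgf in the same pair was 228 and 6.49 CPM. Without the B-cell-rich tumours the SD within a mouse fell to 0.60 for Axl, 0.49 for Pros1 and 0.54 for Hgf, the last of these by more than 1.5 times. In mouse CC059-E2, Axl was 1270, 252 and 1539 CPM in tumours 1, 2 and 3, while Gas6 was 19.5, 794 and 56.9 CPM. The tumour with little Axl was the one with most Gas6 in that mouse.

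**Figure D3:**
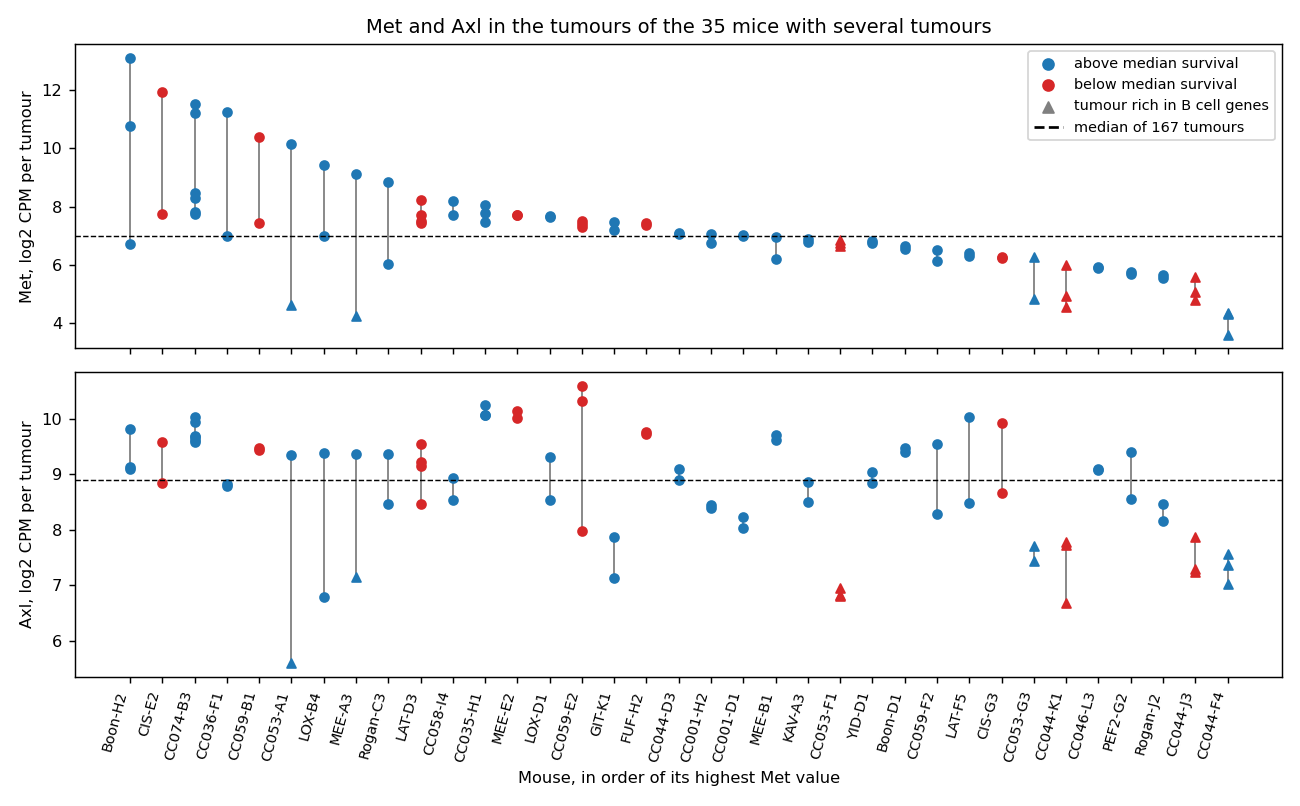
Met (top) and Axl (bottom) in log2 CPM in each tumour of the 35 mice with several tumours, joined by mouse and in the order of the highest Met value; the dashed line is the median of 167 tumours. A few mice on the left hold 1 or 2 tumours with Met far above the others, and triangles (tumours rich in B cell genes) sit low in both panels.

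For Met, single tumours stood far above the rest. Its median over tumours was 128 CPM, and 19 tumours of 17 mice and 14 strains were at least 8-fold above this, from 1138 to 8727 CPM. The next tumour below that limit, of CC081-C5, had 821 CPM. None of the 167 tumours was 8-fold over the median for Axl, Tyro3, Mertk or Pros1, while 10 were for Mst1r, 6 for Gas6 and 3 for Hgf. Of the 17 mice with high Met, 10 were above and 7 below median survival. High Met was often found in 1 tumour and not in the next of the same mouse: Boon-H2 had Met at 105.8, 8727 and 1740 CPM in tumours 1, 2 and 3. CIS-E2 had 3870 and 214 CPM of Met, and 2 of the 6 tumours of CC074-B3 had 2354 and 2901 CPM of Met against 213 to 350 CPM in the others.

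In these tumours the genes next to Met were high as well. Met lies at chr6:17463800-17573980 by GENCODE M21 (GRCm38, plus strand), which starts before the RefSeq start used above. Its neighbours are Cav1, which encodes the membrane protein caveolin, and Capza2, which encodes an actin capping subunit. All 19 tumours had an unbroken run of 3 to 8 neighbouring genes, Met included, at least 4-fold over their own medians. Of the 19, 17 had Cav1, 15 had Cav2, 14 had Tes, 17 had Capza2, 17 had St7 and 13 had the secreted growth factor Wnt2 at least 4-fold over the median. Cav1 and Capza2 were both so high in 15 tumours, Cav1 without Capza2 in 2 and Capza2 without Cav1 in 2, and both together in 0 of the other tumours. No run reached Tfec, 565 kb before the start of Met, which was 4-fold over its median in 0 of the 19. The median of Tfec was only 4.48 CPM. Beyond it, Mdfic, 1743 kb before Met, was at least 4-fold over its median in 2 of the 19, WAB2_H2 and CC036_C1. Over all 167 tumours Mdfic was so high in 2. On the other side Lsm8, 1385 kb after it, was high in 6 and Ing3, 4486 kb after it, in 0.

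The runs had different ends in different tumours. In tumour 1 of CC059-B5, Met was at 5318 CPM and the run spanned Tes to Met, while Capza2 was at its median (-0.07 on the log2 scale). In tumour 2 of CC021-C2, Met was at 4772 CPM and the run spanned Met to St7, while Cav1 was at -0.40. In tumour 2 of Boon-H2 the run spanned Tes to Cftr. The files used here hold RNA only.

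Over all 167 tumours, Pearson's r of Met with its neighbours was 0.84 for Cav2, 0.82 for Cav1, 0.80 for Tes, 0.77 for St7 and 0.76 for Capza2, as a description across tumours that share mice. The median r with the 3 genes on each side was 0.78 for Met, and between -0.15 and 0.18 for the other 7 members. The genes most like Met over the 119 mice, among 12250 genes, were Cav2 (Spearman's rho 0.69), Cav1 (0.68) and Tes (0.66), all from the same stretch, and then Il1rap (0.60) and Hspa4l (0.59).

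Receptors and their ligands were compared across mice in 7 pairs. Met and Hgf were correlated (Pearson's r 0.44, Spearman's rho 0.47, 119 mice, permutation test, adjusted p = 7e-05 over the 7 pairs, the smallest these permutations can give). The value was 0.41 without the 2 mice farthest from the median of Hgf. With strain means subtracted it was 0.37 (permutation test, adjusted p = 0.0049). It was 0.38 without B-cell-rich tumours, which leaves out 11 mice (permutation test, adjusted p = 0.00056). Without the 15 mice in which Met was at least 8-fold over the median it was also 0.41. It was 0.52 in the 91 mice of strains without Umod in each mouse and 0.05 in the 28 mice of the 8 strains in which every mouse had over 2 CPM of Umod, a kidney gene that divides the strains. The difference between these sets was not tested.

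The TAM pairs were weak over all mice, and some values moved with the libraries left out. Pearson's r over 119 mice was 0.22 for Tyro3 and Pros1 and 0.21 for Mertk and Gas6 (permutation tests, adjusted p = 0.0477 for each), with Spearman's rho of 0.22 (adjusted p = 0.0590) and 0.13 (adjusted p = 0.402). With strain means subtracted r was 0.14 (adjusted p = 0.604) and 0.10 (adjusted p = 0.680). Without B-cell-rich tumours r was -0.09 for Tyro3 and Pros1 and 0.21 (adjusted p = 0.0555) for Mertk and Gas6. Axl and Gas6 had r 0.02 over all mice (adjusted p = 0.857) and -0.24 without B-cell-rich tumours (adjusted p = 0.0480). The pairs Axl and Pros1 (0.13), Mertk and Pros1 (0.11) and Tyro3 and Gas6 (0.09) did not pass.

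B-cell-rich tumours were low in most of the 8 genes, which touches each of these relations. Axl had a median of 160.6 CPM in the 22 tumours (48.3 to 309) and 545 CPM in the others, and Tyro3 4.36 against 18.4 CPM. Pros1 was at 25.9 against 91.8 CPM, Met at 32.3 against 147.2 CPM and Hgf at 10.1 against 60.3 CPM. For each of these 5 genes, 0 of the 22 tumours exceeded the median of the others. The 22 tumours come from 13 mice, mostly of CC044 and CC053, so they are not independent. The share of all genes with such a pattern was not computed. Gas6 was at 29.2 against 101.7 CPM (1 of 22 above), Mst1r at 2.98 against 8.83 CPM (2 of 22) and Mertk at 30.7 against 41.5 CPM (8 of 22).

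Each member was also compared with 12 marker lists, 96 relations in all, with members left out of the lists. Permutation tests adjusted over the 96 called 52 relations over 119 mice, 31 with strain means subtracted and 35 without B-cell-rich tumours. Of these, 24 were called in all 3 with the same sign. The share of all genes called with these lists was not computed, so these counts are not read as a trait of the members. Values below are Pearson's r over the 119 mice, then with strain means subtracted, then without B-cell-rich tumours, and each named relation was called in all 3 unless stated.

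Axl, Tyro3 and Hgf moved with stromal and mesenchymal genes. Axl had r of 0.69, 0.68 and 0.64 with 11 genes of the mesenchymal state, such as Vim, Fn1 and Zeb1, and of 0.51, 0.55 and 0.36 with fibroblast and matrix genes. For the first of these Spearman's rho was 0.57, r without the 2 farthest mice was 0.72 and the adjusted p was 5.33e-05 by permutation. Tyro3 had r of 0.67, 0.64 and 0.57 with fibroblast and matrix genes and 0.66, 0.58 and 0.55 with the mesenchymal state. Hgf had r of 0.60, 0.55 and 0.51 with the mesenchymal state, and of -0.47, -0.47 and -0.56 with mesothelial markers. Axl, Tyro3 and Hgf were also alike among themselves: Spearman's rho was 0.54 for Axl and Hgf, 0.46 for Axl and Tyro3 and 0.40 for Tyro3 and Hgf, as a description.

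Axl and targets of YAP, a coactivator of TEAD factors, had r of 0.46, 0.36 and 0.28. With cell cycle genes Axl had r of 0.26, 0.34 and 0.58, so that this relation was higher without the B-cell-rich tumours. In the 11 mice with only such tumours it was -0.83. With B and plasma cell genes Axl had r of -0.47 and -0.36, and -0.21 without B-cell-rich tumours, where it did not pass (adjusted p = 0.0680).

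Mertk and Gas6 moved with macrophage genes. Mertk had r of 0.53, 0.49 and 0.50 with 13 macrophage genes. The 3 tumours with most Mertk were LAX_G3 (253 CPM), TOFU_K2 (244 CPM) and VIT_A2 (202 CPM). Macrophage genes summed to 18839, 5785 and 19601 CPM in these, against a median of 2695 CPM. TOFU_K2 was also a library with another organ, with skeletal muscle genes at 68305 CPM. VIT_A2 was also the second lowest of all tumours for Axl, at 48.5 CPM. Gas6 had r of 0.44, 0.31 and 0.44 with macrophage genes and 0.31, 0.34 and 0.32 with epithelial genes. Met went the other way, with r of -0.31, -0.30 and -0.32 with macrophage genes.

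Both TAM ligands were lower where cell cycle genes were higher. Gas6 had r of -0.57, -0.47 and -0.49 with 14 cell cycle genes, and Pros1 had r of -0.44, -0.40 and -0.26. Pros1 also had r of 0.32, 0.27 and 0.32 with neutrophil genes and 0.49, 0.36 and 0.25 with fibroblast and matrix genes. Its relations with T cell genes (-0.40, -0.32 and 0.03) and B cell genes (-0.48, -0.40 and -0.05) were not called without the B-cell-rich tumours. Gas6 and Pros1 had Spearman's rho of 0.33 with each other, and Gas6 and Met of -0.31.

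Mst1r stood with the mesothelial markers. It had r of 0.61, 0.58 and 0.59 with 12 such genes, Msln and Wt1 among them, and 0.36, 0.41 and 0.27 with YAP targets. Hgf and Mst1r thus had opposite signs with mesothelial markers, and Spearman's rho between them was -0.25.

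**Figure D4:**
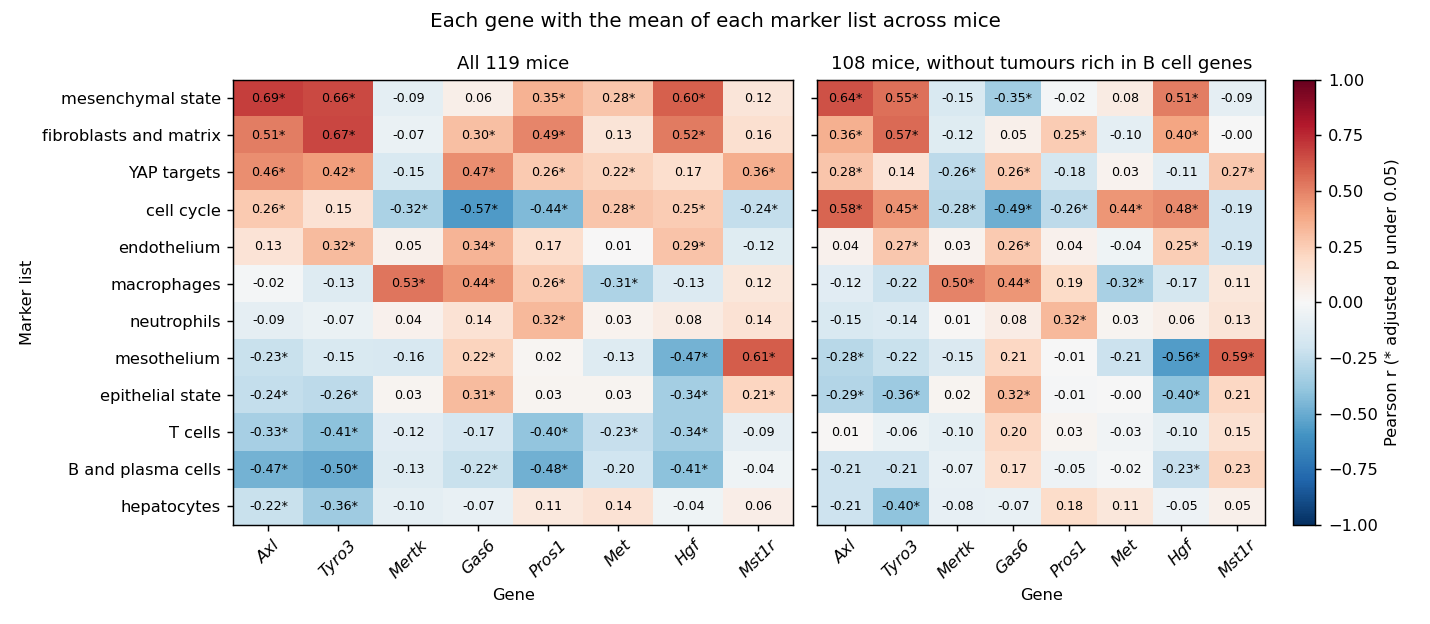
Pearson's r of each gene (x axis) with the mean level of each marker list (y axis) over 119 mice (left) and without tumours rich in B cell genes (right); asterisks mark an adjusted p under 0.05. Axl, Tyro3 and Hgf are red with mesenchymal genes in both panels, Mertk and Gas6 with macrophage genes and Mst1r with mesothelial genes, while most blue cells for T and B cell genes on the left fade on the right.

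The genes most like each member, by Spearman's rho over 119 mice among 12250 genes with a mean of at least 5 CPM, were of several kinds. For Axl they were Atp10a, Bahcc1, Frmd4a (each 0.72), Dip2a and Emp1 (each 0.71). For Tyro3 they were St3gal2 (0.73), Pxdn, Cul7, Olfml2b (each 0.72) and Csrnp2 (0.71). For Mertk they included Mylip (0.57), Slc43a2, Pla2g7 (each 0.56) and Ms4a4a (0.55).

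For Gas6 the closest were Pdk2 (0.71), Sh3tc1, Crat (each 0.67), Npr1 and Fmod (each 0.66), and for Pros1 Il13ra1 (0.64), Slc35f5 (0.61), Arl13b (0.58), Slc39a14 (0.57) and Mmp19 (0.56). Arl13b lies 7 kb from Pros1. Hgf had the highest values of all members, with Trps1 (0.80), Sema3a (0.77), Dkk2 (0.75), Pdgfra, a receptor that marks fibroblasts (0.73), and Il1rl1 (0.72). Sema3a lies 3428 kb from Hgf on the same chromosome. Of the genes between them, Cacna2d1 had Pearson's r of 0.68 with Hgf over the 167 tumours and Sema3e -0.01. For Mst1r they were Cyp2s1 (0.73), Ptgis (0.63), Gpr39, Smim1 (each 0.62) and Slc9b2 (0.61). Neighbouring genes on the genome were among the genes most like Met and Pros1.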

How the data were processed

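Whole tumours were sequenced as strand-specific mRNA libraries. The authors ran kallisto 0.46.1 with the build GRCm38, per the submitters' processing notes, which also name DESeq2 and DESeq, with settings and annotation not given in the sources used here. Estimated counts of 36118 genes were deposited as whole numbers. A second deposited table, with 22049 of these genes, holds equal values in 100% of its cells and was not used. Columns were joined to tumours by title, the 2 columns of mouse GIT-K1 only to their mouse. Per the labels, samples were grouped by survival class, strain and mouse.

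Counts were summed per mouse, TMM-scaled and put through the quasi-likelihood F-test of edgeR 4.0.16 (filterByExpr, R 4.3.3), two-sided, with Benjamini-Hochberg adjustment over all genes tested and a threshold of 0.05: between classes, within strain, and between strains with at least 3 mice. Log2 CPM used a prior count of 2. Correlations were tested with 100000 permutations (Python 3.11.15), within strain where strain means were subtracted. Alternatives were limma 3.58.1 (voom and trend), DESeq2 1.42.0, other size factors, filters, prior counts and sets of libraries; leaving out B-cell-rich tumours, and libraries or mice from correlations, was chosen after seeing the data. The tests were checked on simulated data. Exon lengths come from GENCODE M21 and promoters from RefSeq (GRCm38.p6); no protein sequence was used.

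The members and gene lists were chosen with earlier results of these data known. Genes named are the members, the 5 genes of highest Spearman's rho with each (1 of these is not reported here), and of the pathway lists the genes that passed or the 3 of lowest p; tumours, mice, strains and neighbouring genes were named after their values were seen.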

Additional observations from a re-analysis of the deposited data

Results flagged for a closer look

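In groups of 4 to 10 mice of 1 strain, 6 groups of a gene and a strain had 1 mouse far from the others. These are 5.36% of the groups tested, and chance sets apart about 1 in 20, so the number is at the level that chance gives. Met was 7401 CPM in GIT-H3, against 105.9 to 162 CPM in the other 3 GIT mice, and this is 1 of the tumours with neighbouring genes of Met raised. Met was 1.98 CPM in LOX-E4, whose tumour was rich in B cell genes (2222 CPM). Axl was 319 CPM in Rogan-J2, the lowest of the 4 Rogan mice. Hgf was 163 CPM in CC044-F2, a CC044 mouse without a B-cell-rich tumour. Mst1r was 1.35 CPM in CC040-D3, the lowest of the 4 CC040 mice, and 157.9 CPM in CC053-B1, against 2.32 to 7.17 CPM in the other CC053 mice.

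Counting only strains in which both classes had 2 or more mice, 2 genes had classes that lay in opposite order in 2 strains with no overlap. GIT and MEE hold 2 mice of each class, and CC059 holds 3 above and 2 below. With so few mice, chance alone can often separate the classes, and the share of all genes was not computed. Tyro3 was lower in mice below median survival in GIT, by a log2 difference of -0.48, and higher in MEE, by 1.28. Pros1 was lower in CC059, by -0.64, and higher in MEE, by 1.77. In each case the difference between strains was not tested, and MEE includes a mouse with a B-cell-rich tumour that resembled strain CC044.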

How the results depend on the processing

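Survival class belongs to the mouse, so tumours of 1 mouse could not be paired between the classes. The labels carry no replicate numbers, and numbers were given in accession order. The count of members called between classes and within strain was 0 in each alternative run. Between strains 4 members were called, 1 in the 8 strains with Umod in every mouse, and 5 both without libraries with over 1% of another tissue and without libraries nearer to another strain. Of 7 pairs 3 were called, 1 by Spearman's rho and 1 with strain means subtracted, and of 96 relations with lists 52 were called, 31 with strain means subtracted.

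Class differences, none of them called, changed sign as follows. With limma-voom they were 0.34 for Gas6, -0.15 for Mst1r and -0.10 for Tyro3, with limma-trend 0.0035 for Axl, 0.31 for Gas6 and -0.0020 for Mst1r, and with DESeq2 0.37 for Gas6. In the strains with Umod in every mouse they were 0.13 for Axl, 0.23 for Gas6 and -0.50 for Mst1r, and without libraries with over 1% of another tissue 0.036 for Axl, -0.24 for Mst1r and -0.018 for Pros1. Within strain, the strains with Umod gave -0.073 for Gas6, -0.57 for Mertk, -0.076 for Met and -0.19 for Pros1, the other strains gave 0.18 for Mst1r, and leaving out B-cell-rich tumours gave -0.13 for Mertk and -0.32 for Met.

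Among pairs, r without B-cell-rich tumours was of the opposite sign for Tyro3 and Pros1 (-0.093), Axl and Gas6 (-0.24), Axl and Pros1 (-0.21) and Tyro3 and Gas6 (-0.16). With strain means subtracted it was for Axl and Gas6 (-0.046) and Tyro3 and Gas6 (-0.057), and in strains with Umod for Axl and Gas6 (-0.30), Axl and Pros1 (-0.15) and Tyro3 and Gas6 (-0.12). Only the first of these pairs, Tyro3 and Pros1, was called over all mice.

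Of the called relations with lists, r changed sign without B-cell-rich tumours for Axl and T cells (0.0083), Gas6 and B cells (0.17), and Pros1 with T cells (0.029), YAP targets (-0.18) and the mesenchymal state (-0.019), and in strains with Umod for Gas6 and B cells (0.36) and Pros1 and YAP targets (-0.012). Of the others it did without B-cell-rich tumours for Gas6 with T cells (0.20), Gas6 with mesenchymal state (-0.35), Hgf with YAP targets (-0.11), Met with endothelium (-0.039), Met with epithelial state (-0.0047), Met with fibroblasts and matrix (-0.10), Mst1r with B and plasma cells (0.23), Mst1r with T cells (0.15), Mst1r with fibroblasts and matrix (-0.0040), Mst1r with mesenchymal state (-0.089), Pros1 with epithelial state (-0.0098) and Pros1 with mesothelium (-0.0075), and with strain means subtracted for Axl with macrophages (0.062), Gas6 with hepatocytes (0.032), Gas6 with mesenchymal state (-0.0027), Met with neutrophils (-0.012), Pros1 with epithelial state (-0.029) and Pros1 with mesothelium (-0.065). The cause was not tested.

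Over all genes, 267 were called between classes, 0 with limma-voom (487 at an unadjusted p under 0.05), 0 with limma-trend (520), 1108 without a filter on low counts, 6 in strains with Umod, 517 in the others, 135 without libraries with other tissue and 576 without CC040 and LAX. Within strain it was 0, against 65 with DESeq2 and 3 in strains with Umod, and between strains 14283, against 2408 in strains with Umod.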
